A study of Homo sapiens with 3 samples.

Results

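The stretch described here is G280 to G305 of the human 7SK RNA, numbered from the 5' end. It is a linker of 20 nucleotides (G280 to U299) and the first 6 nucleotides of the 5' strand of stem-loop 4 (G300 to G305). It was taken by position, keeping nucleotides with at least 1000 reads usable for calling a mutation (the effective depth) in all 3 libraries. All 26 positions met this, out of 288 that did so along the RNA, and all 26 carried mutations. They comprise 9 A, 8 C, 6 G and 3 U.

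HEK293T cells, an established line of embryonic kidney origin, were given 10 mM SDA dissolved in DMSO (2 libraries, SDA replicates 1 and 2) or 0.5% DMSO alone (1 control library). Both groups were held for 10 min at 37 °C and then irradiated on ice with 2 J/cm2 of 365 nm light. The control thus had the same light and the same kind of solvent. The percentage of DMSO in the SDA libraries is not given in the labels. SDA attaches to lysines and, under this light, joins them to nearby RNA, where reverse transcription leaves a mutation; the method is called RNP-MaP. The labels do not say whether the SDA libraries are separate cultures, so the spread between these libraries may be technical. In the main edgeR fit, p-values rest on that spread pooled over all measured nucleotides and on counting error. They do not weigh each nucleotide's own replicate difference.

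7SK is an abundant RNA of the nucleus that keeps P-TEFb, a kinase needed for transcription elongation, inactive in a particle. Its last hairpin, stem-loop 4, and the uridine tail after it are bound by LARP7, a La-related protein that stays with the RNA and protects its 3' end. The linker before that hairpin has been proposed to pair with the 5' end of the RNA, which closes it into a ring.

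The sequence is printed with capitals at the nucleotides whose SDA/control ratio lay above that of their base, then with capitals at those that lay below, so that both can be placed along the RNA.
G280 to G305, above their base: gacuccagaCacauccaaaUGAGgcg
G280 to G305, below their base: gaCuccagacacauccaaaugaggCg

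Effective depth over the 26 nucleotides ran from 199647 to 214546 in the first SDA library, from 221122 to 234250 in the second and from 265905 to 281206 in the control. At the median depths, no mutations at all would leave room for rates of 0.00144%, 0.00131% and 0.00109% (3 counts). The lowest count at any of the 26 was 52, at A292 in the control. Intervals of single-library rates were computed by the exact Clopper-Pearson method (95%). The reads were made by PCR and carry no molecular identifiers, so these limits hold for counting error alone.

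Mutations rose most at the junction between the linker and stem-loop 4. From A296 to G302, all 7 nucleotides were higher with SDA than in the control, by a median of 1.79 times, against 1.13 times over all 287 measured nucleotides. From G280 to C295, 3 of 16 were higher, with a median of 1.21 times, and from G303 to G305 the median was 1.03 times. The borders of this run were chosen with its values known, so these figures describe it and are not a test. They also do not account for the base of each nucleotide. In all, 10 of the 26 were higher than the control and 1 was lower (edgeR's quasi-likelihood test, Benjamini-Hochberg adjustment over the 287 nucleotides, threshold 0.05). Over the whole RNA 29.3% were called higher and 0.697% lower. DESeq2 called 4 of the 26 higher, where it called 9.41% of the RNA. EdgeR on read depth instead of effective depth called 3 of the 26, where it called 8.01% of the RNA.

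**Figure D1:**
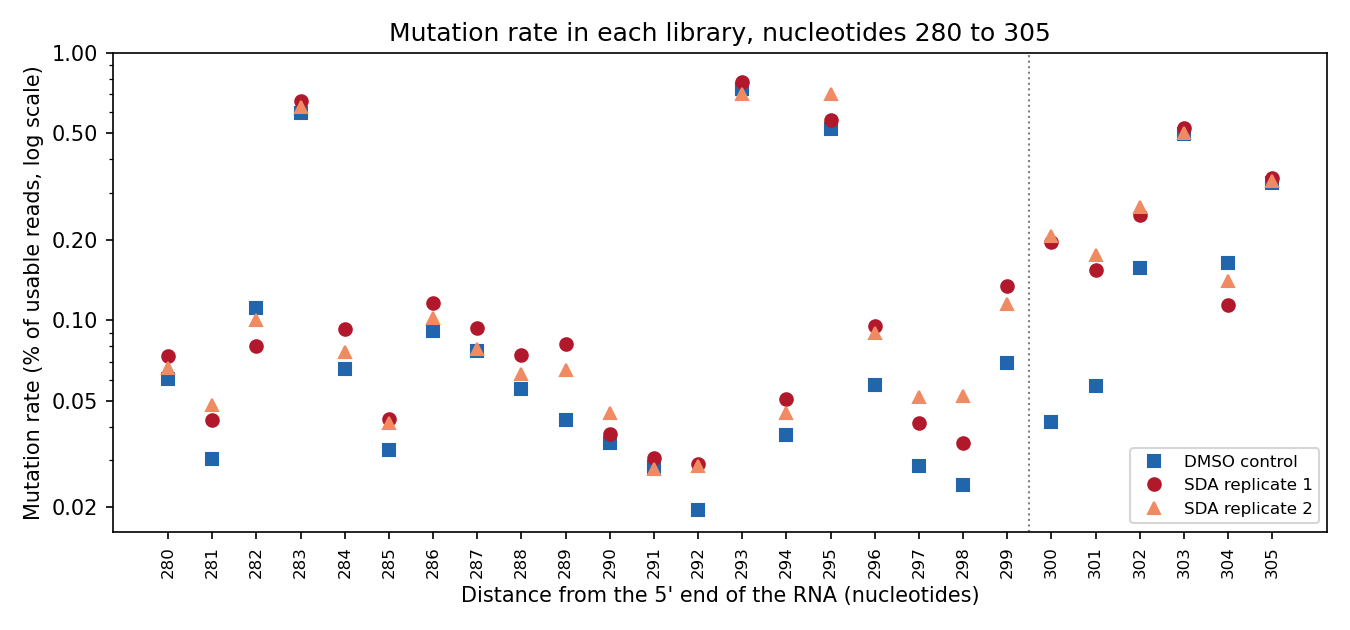
Mutation rate (percent of usable reads, log axis) at each nucleotide from G280 to G305 in SDA replicate 1 (circles), SDA replicate 2 (triangles) and the DMSO control (squares); the dotted line separates the linker from stem-loop 4. Both SDA libraries lie above the control from A296 to G302, most clearly at G300 (0.197% and 0.206% against 0.0418%), while at C282 and C304 both lie below it.

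G300, the first nucleotide of the stem-loop 4 strand, showed the largest ratio. Its mutation rate was 0.197% in SDA replicate 1 and 0.206% in replicate 2, while the control had 0.0418% (exact 95% interval 0.0345% to 0.0502%). Both SDA values lay far above that interval and close to each other. The mean of 0.201% ± 0.00659 (SD, n = 2) was 4.82 times the control, a log2 ratio of 2.27 (SE 0.16, edgeR adjusted p = 4.68e-31). The counts behind it were 411, 472 and 115 mutations.

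The other nucleotides of the stem-loop 4 strand fell into those next to G300, which rose, and those nearer to the primer, which did not pass as higher. A301 read 0.154% and 0.176% with SDA and 0.0567% in the control, a mean of 0.165% ± 0.0153 (SD, n = 2) and 2.91 times the control (log2 ratio 1.54, SE 0.16, edgeR adjusted p = 1.58e-17). G302 read 0.248% and 0.265% against 0.157%, which is 1.63 times (log2 ratio 0.71, SE 0.11, edgeR adjusted p = 1.42e-08). At both, each SDA library lay above the upper limit of the control's interval. G303 had a high background and read 0.525% and 0.500% against 0.497%. G305 was similar, at 0.341% and 0.331% against 0.326%. The edgeR adjusted p at G303 and G305 was 0.732 and 0.756, which does not show that SDA and control were equal there.

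C304 was the nucleotide of the stretch called lower with SDA. It read 0.114% and 0.140% against 0.163% in the control (exact 95% interval 0.149% to 0.179%), and both SDA values lay below the interval. The mean was 0.780 times the control (log2 ratio -0.35, SE 0.13, edgeR adjusted p = 0.028). DESeq2 did not call it (adjusted p = 0.412), nor did edgeR on read depth (adjusted p = 0.187).

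The linker's last 4 nucleotides, A296 to U299, were all higher with SDA. U299, next to the hairpin, read 0.135% and 0.115% against 0.0695%, or 1.79 times (log2 ratio 0.84, SE 0.16, edgeR adjusted p = 4.62e-06). A296 read 0.0956% and 0.0896% against 0.0575%, or 1.61 times (edgeR adjusted p = 0.000885). Both SDA libraries lay above the control at U299 and A296, and replicate 1 was the higher of the pair. A297 read 0.0413% and 0.0517% against 0.0285%, or 1.63 times (edgeR adjusted p = 0.00635). A298 read 0.0349% and 0.0520% against 0.0242%, or 1.80 times (edgeR adjusted p = 0.000885). At A297 and A298 replicate 2 was the higher of the pair. DESeq2 and edgeR on read depth did not call A296, A297 or A298, and edgeR on read depth did not call U299 (adjusted p = 0.0514).

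In the body of the linker, A281, C289 and C295 were higher with SDA. C289 read 0.0813% and 0.0655% against 0.0425%, or 1.73 times (log2 ratio 0.78, SE 0.20, edgeR adjusted p = 0.000716). A281 read 0.0424% and 0.0481% against 0.0302% (log2 ratio 0.58, SE 0.21, edgeR adjusted p = 0.0246). C295 read 0.563% in replicate 1 and 0.705% in replicate 2 against 0.518% (log2 ratio 0.29, SE 0.09, edgeR adjusted p = 0.00652), and replicate 2 held most of the rise. The SDA libraries differed at C295 beyond counting error, with the rate in replicate 1 at 0.798 times that in replicate 2 (Fisher's exact test, adjusted p = 3.89e-07). Over the whole RNA 0.697% of nucleotides differed between the SDA libraries by this test, and C295 was the only one of the 26. The edgeR p-value at C295 gives this replicate difference no weight. None of A281, C289 and C295 was called by DESeq2 or by edgeR on read depth, and with TMM factors A281 and C295 did not pass either (edgeR adjusted p = 0.153 and 0.36).

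The remaining linker nucleotides had ratios of mean rates from 0.809 at C282 to 1.47 at A292. C282 read 0.0803% and 0.10% against 0.112% in the control (exact 95% interval 0.0993% to 0.125%); replicate 1 lay below the interval and replicate 2 inside it. U293 and U283 had the highest control rates of the stretch, 0.730% and 0.596%. With SDA, U293 read 0.777% and 0.701%, on either side of its control. U283 read 0.664% and 0.630%, both above. Of all 26 nucleotides, 22 read above the control in each SDA library and 2 read below it in each, C282 and C304; over the whole RNA the shares were 79.4% and 8.36%.

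Bases differ in how far SDA raises their rate, so each ratio was also set against the median over all measured nucleotides of its base. That median was 1.40 among A, 1.12 among C, 1.10 among G and 1.11 among U. The resulting centred log2 ratio is 0 for a typical nucleotide of that base. On this scale 5 of the 26 lay above their base, where 9.41% of the whole RNA did, and 2 lay below, where 3.83% did (edgeR, adjusted p under the threshold of 0.05). Those above were C289, U299, G300, A301 and G302, and those below were C282 and C304. The linker held 2 above and 1 below, and the stem-loop 4 strand held 3 above and 1 below. From A296 to G302 the median centred log2 ratio was 0.56, and 4 of the 7 lay above their base. DESeq2 called 3 above (G300, A301 and G302), where it called 5.23% of the RNA, and edgeR on read depth called G300, where it called 4.18%. Below their base DESeq2 called 0 of the 26 (0.697% of the RNA) and edgeR on read depth called 0 (0.348%). At an unadjusted p under 0.05 each had 1 of the 26, and the share of the RNA at that threshold was not computed.

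**Figure D2:**
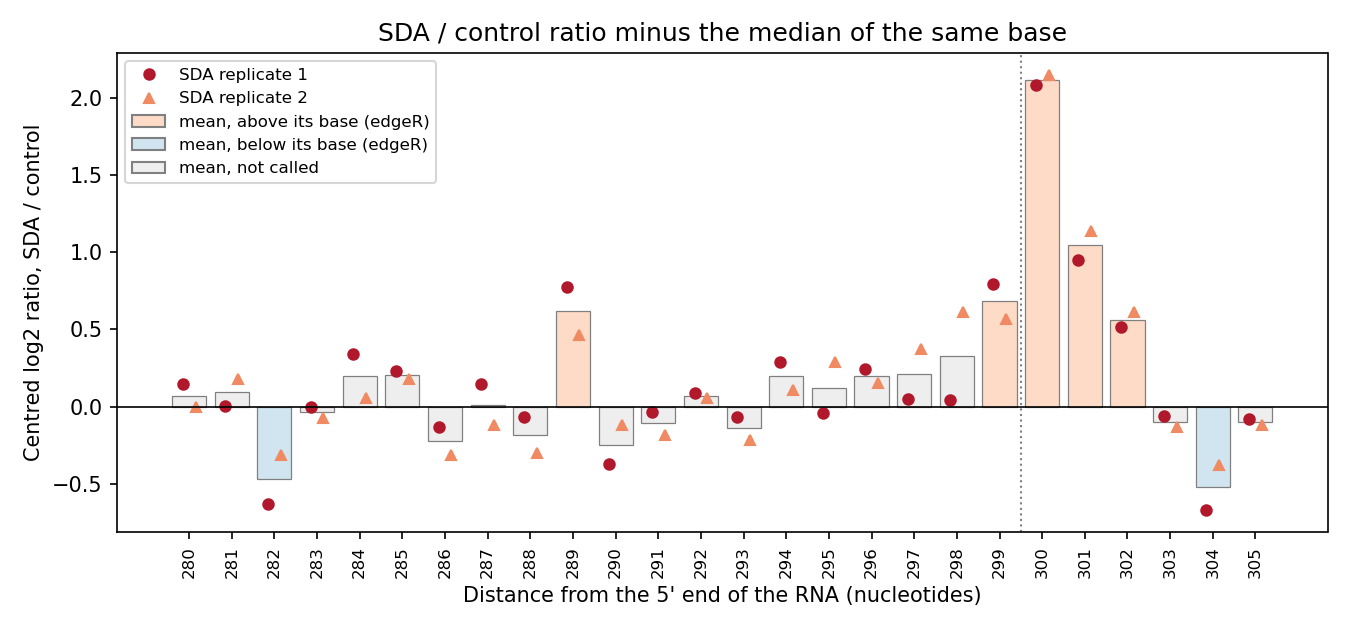
Centred log2 ratio of SDA to control (0 is the median of the same base) from G280 to G305; bars are the mean of the SDA libraries, the circle is replicate 1 and the triangle replicate 2, and bar colour gives the edgeR call. The values climb from U299 to a peak at G300 (2.09 and 2.15) and are slightly below 0 at G303, with C282 and C304 below 0 in both replicates.

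G300 reached 2.12 on the centred log2 scale (SE 0.17, edgeR adjusted p = 1.04e-27), with 2.09 in replicate 1 and 2.15 in replicate 2. This was the highest of all 287 measured nucleotides, and the next G, G55, stood at 0.89. Its control rate was among the lowest of its base, rank 77 of 78 G in descending order. The rise was also large as a difference of rates, at 16.0 ± 0.659 mutations per 10000 reads (SD, n = 2), rank 2 of the 287.

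A301 reached 1.05 on the centred log2 scale (SE 0.16, edgeR adjusted p = 1.15e-08) and had rank 2 of 60 A. G302 reached 0.57 (SE 0.11, edgeR adjusted p = 1.11e-05) and had rank 3 of 78 G. Their differences of rates were 10.8 ± 1.53 and 9.95 ± 1.21 mutations per 10000 reads (SD, n = 2). For both, edgeR on read depth gave an adjusted p of 0.0537, just past the threshold.

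U299 had a centred value of 0.68 (SE 0.16, edgeR adjusted p = 0.00043) and C289 one of 0.62 (SE 0.20, edgeR adjusted p = 0.0136). The SDA replicates read 0.80 and 0.57 at U299, and 0.77 and 0.46 at C289. U299 had rank 9 of 59 U and C289 rank 4 of 90 C. DESeq2 called neither (adjusted p = 0.107 and 0.463), and edgeR on read depth called neither (adjusted p = 0.11 and 0.196).

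A296, A297 and A298 rose above the control but did not pass against other adenosines. They stood at 0.20, 0.23 and 0.37 on the centred log2 scale (edgeR adjusted p = 0.597, 0.628 and 0.315). At A298 the replicates were 0.04 and 0.61. When the median of all nucleotides was used as the centre in place of that of the base, A296 and A298 passed (edgeR adjusted p = 0.0262 and 0.017).

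C304 and C282 lay below other cytidines. C304 had the lowest centred log2 ratio of all 90 C, -0.51 (SE 0.13, edgeR adjusted p = 0.0016), with -0.67 in replicate 1 and -0.38 in replicate 2. C282 had -0.46 (SE 0.15, edgeR adjusted p = 0.0242), with -0.63 and -0.32. DESeq2 called neither (adjusted p = 0.249 and 0.608), and edgeR on read depth called neither (adjusted p = 0.196 and 0.231). The differences of rates were -3.59 ± 1.83 at C304 and -2.14 ± 1.40 at C282, in mutations per 10000 reads (SD, n = 2).

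**Figure D3:**
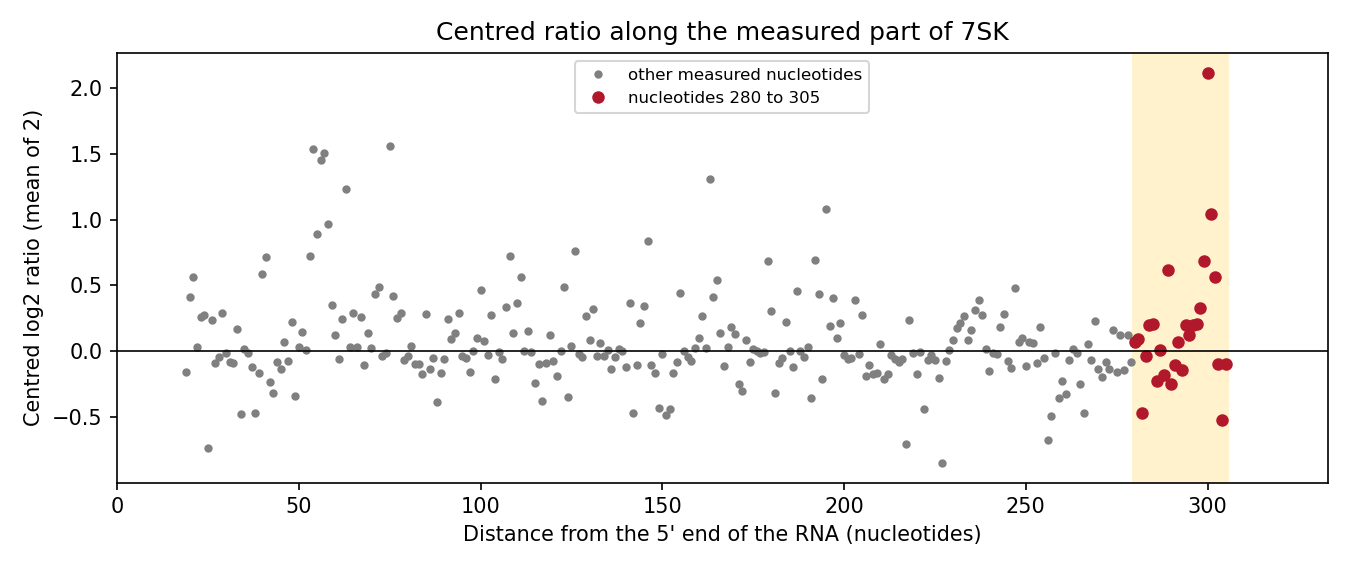
Centred log2 ratio (mean of the SDA libraries) at the 287 measured nucleotides along 7SK, with G280 to G305 in red on a shaded band. The highest point of the RNA is G300 (2.12), near the end of the measured part, while most of the band lies among the other nucleotides around 0.

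The medians of the stretch lay close to those of the rest of the RNA. Its median ratio of mean rates was 1.26, against 1.13 over the 261 measured nucleotides outside it. Its median centred log2 ratio was 0.08, with 0.05 in each SDA library, and that of the stem-loop 4 strand was 0.23. Both signs turned under an alternative: the median of the stretch was -0.0278 mutations per 10000 reads as a difference of rates from that of the base, and that of the strand was -0.10 with its boundary moved 2 nucleotides toward the 3' end (0.45 toward the 5' end). By base, the medians inside and outside the stretch were 0.09 and -0.03 among A, 0.16 and -0.0024 among C, 0.04 and -0.01 among G, and -0.04 and 0.02 among U. Nucleotides of 1 RNA are not replicates, and permuting 2 libraries against 1 gives no p under 0.333, so these medians were not tested.

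The letters around G300 were compared with the same letters elsewhere in the RNA. The triplet UGA was measured at 4 places on the RNA strand, with its G at G42, G55, G64 and G300. The centred log2 ratios there were -0.23, 0.89, 0.03 and 2.12. G55 and G300 passed as above their base (edgeR adjusted p = 8.81e-05 and 1.04e-27). G42 and G64 did not pass as above or below it (edgeR adjusted p = 0.385 and 0.976). Whether the letters around a G affect its ratio was not tested. The longer GAGG, which starts at G300, also starts at G145, G165 and G168, with centred log2 ratios of 0.34, 0.54 and 0.03. Of these, G165 passed (edgeR adjusted p = 0.0112).

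Pairing was predicted by RNAfold from the sequence in the deposited tables, for the RNA without protein. The linker holds a run of 7 nucleotides, C289 to C295, that is Watson-Crick complementary to G1 to G7 at the 5' end, and both are shown in capitals.
G1 to G18: GGAUGUGagggcgaucug
G280 to G305: gacuccagaCACAUCCaaaugaggcg
In the minimum free energy structure C289 to C295 pair with G7 to G1, each with a probability of being paired of at least 0.974. Within this run C289, which forms the innermost pair with G7, was above its base. The other 6 had centred log2 ratios from -0.24 at A290 to 0.20 at C294. The 5' partners lie before nucleotide 19, where the measured part begins, and have no values.

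The nucleotides between that run and stem-loop 4, A296 to U299, were predicted unpaired, with probabilities of being paired of at most 0.252. All 6 nucleotides from G300 to G305 were predicted paired, with partners in the 3' strand of the hairpin. Folding A296 to the 3' end alone gave the same state for A296 to G305. The sequence of that fold is given with its paired nucleotides in capitals.
A296 to the 3' end: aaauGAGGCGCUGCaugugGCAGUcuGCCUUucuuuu
G300 pairs with U326, A301 with U325 and G302 with C324, the outermost pairs of the helix. G300 and A301, which had the highest ratios to the control in the stretch (4.82 and 2.91 times), were thus predicted paired. A298 and U299, predicted unpaired, followed at 1.80 and 1.79 times, and C289, predicted paired, at 1.73 times. G302 was predicted paired and came after these, at 1.63 times. G303, C304 and G305, further along the same strand, were predicted paired too and did not pass as higher. Of the 26 nucleotides, 17 were paired in the minimum free energy structure, against 153 of the 261 measured outside the stretch. In the linker 11 of 20 were paired, as G280 to U283 were also predicted to pair, with C185 to G182. Of the 5 above their base all but U299 were paired, and C282 and C304, which lay below theirs, were paired too.

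**Figure D4:**
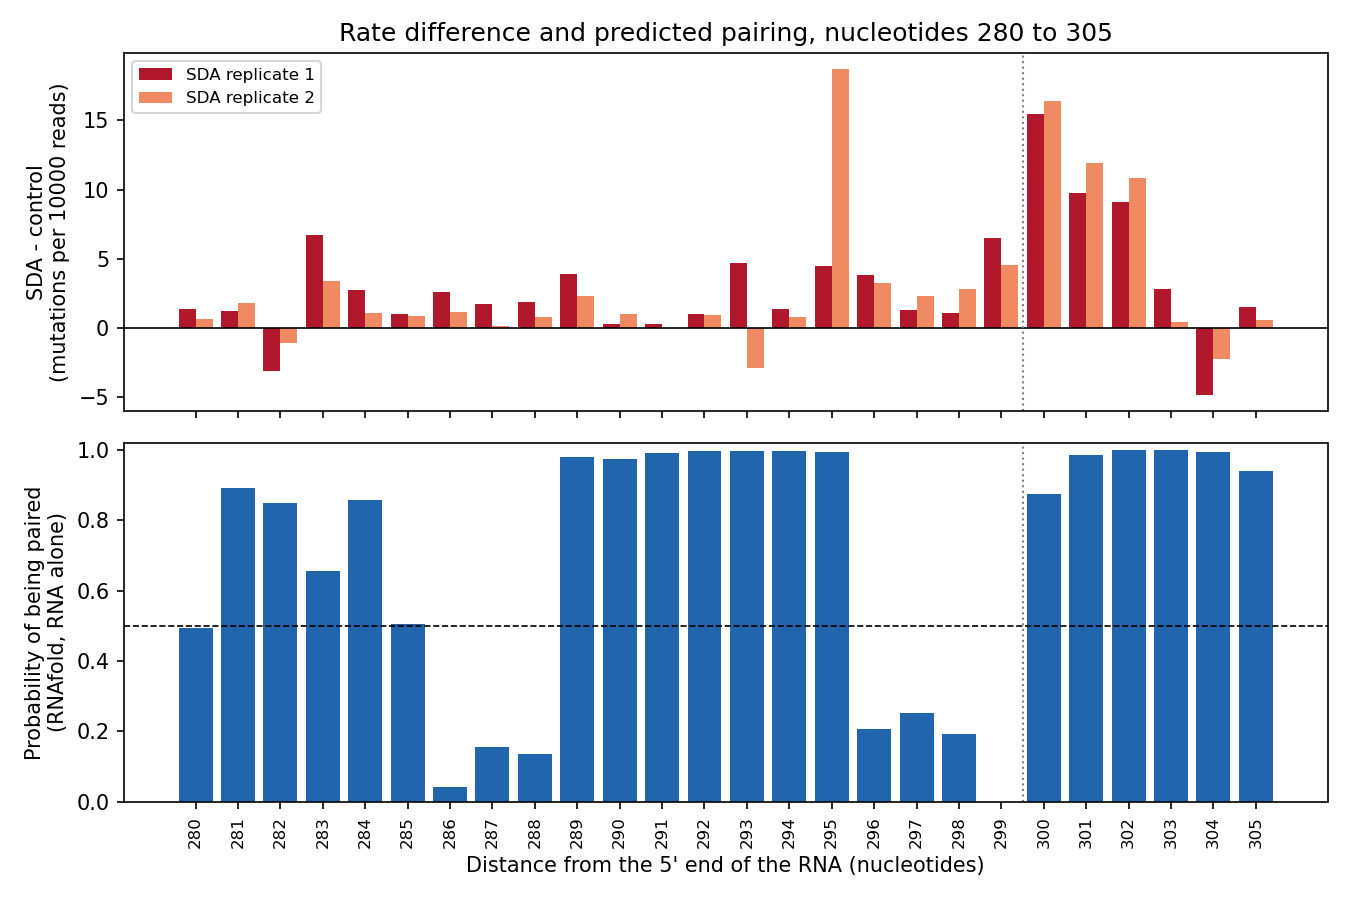
Upper panel: SDA rate minus control rate (mutations per 10000 reads) for SDA replicates 1 and 2 from G280 to G305; lower panel: RNAfold probability of being paired, with a dashed line at 0.5. The largest differences that both replicates share are at G300 to G302, which are predicted paired, and the large value at C295 belongs to replicate 2 (18.7 against 4.47).

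In the authors' deposited tables the stretch holds 6 RNP-MaP sites by replicate 1 and 7 by replicate 2, and A296, U299, G300, A301 and G302 are sites by both. Over the whole RNA the authors' deposited tables call 16.4% and 12.9% of nucleotides, and 10.8% by both. C289 is a site by replicate 1 of the authors' deposited table, and A297 and A298 are sites by replicate 2. At G300 the authors' deposited ratio is 4.71 and 4.93, against thresholds for G of 1.47 and 1.45. At A301 the authors' deposited ratio is 2.71 and 3.10, and at A296 it is 1.66 and 1.56, against thresholds for A of 1.54 in both. At C289 the authors' deposited ratio of 1.54 in replicate 2 exceeds the threshold of 1.41, but the Z-factor score is -0.0386. C304 is no site in the authors' deposited tables, where its ratio is 0.701 and 0.860.

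No mutations were counted beyond G305. At C306 the effective depth was 206426, 226984 and 272807, yet 0 mutations were counted in each library. From U307 to the 3' end, 26 nucleotides, the effective depth was 0. These nucleotides hold the loop of stem-loop 4, its 3' strand and the uridine tail, so most of the part that LARP7 is known to bind was not measured. The effect of the neighbouring primer site on the values from U299 to G305 was not tested. The usable share of read depth was at least 89.6%, 91.7% and 92.0% over the 26 nucleotides in SDA replicate 1, SDA replicate 2 and the control.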

How the data were processed

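RNP-MaP of 7SK was analysed in 2 SDA libraries and 1 DMSO control. Per the file headers, the authors deposited counts of mutations, read depth and effective depth for each nucleotide, and a mutation rate as a fraction, which was checked to be mutations over effective depth. The control columns were checked to be identical in both deposited tables. The authors also deposited a ratio of SDA to control rate, a Z-factor score and a site call. Which aligner, mutation caller and genome build the authors used is not given in the sources used here; positions run along the RNA.

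The 287 nucleotides with effective depth of 1000 or more in every library and 1 mutation or more in total were fitted together with edgeR 4.0.16 in R 4.3.3 (glmQLFit and glmQLFTest, two-sided, trended dispersion), with log effective depth as offset. In the centred fit the offset of both SDA libraries also held the median log2 ratio of the base. Residual spread comes from the SDA pair alone (1 degree of freedom), is shared between nucleotides and is assumed for the control. The estimated prior degrees of freedom were infinite, so a nucleotide's own replicate difference had no weight in its p-value. SE is the log2 ratio, unsigned, divided by the root of F. Single-library log2 ratios and medians used 0.5 mutations as pseudocount. The fit was tested on simulated libraries with the same dispersion at every nucleotide. That test does not cover nucleotides whose replicates disagree more than others. Its first version missed its limit on error, and the criterion was then changed, while the fit was not. DESeq2 1.42.0 was an alternative. RNAfold 2.7.2, python 3.11.15, numpy 2.4.6, scipy 1.17.1 and pandas 2.3.3 were used. Any nucleotide of the stretch could be named; full values are given for those called, those that are sites of the authors and the extremes. The nucleotides, lists and borders were chosen with earlier results of these data known.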

Additional observations from a re-analysis of the deposited data

Results flagged for a closer look

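Off-target reads, a column that no comparison here uses, took a larger share of read depth with SDA than without over G280 to G305. The median share was 0.0440% for SDA replicate 1, 0.0386% for SDA replicate 2 and 0.0336% for the control. The counts behind these shares were close to each other. At G280 they were 98, 93 and 97 off-target reads, at read depths of 222628, 240862 and 288723. The difference between the shares was not tested. The order was the same over all 287 measured nucleotides, where the shares were higher (0.0853%, 0.0669% and 0.0600%), so it is not particular to the stretch. A single control gives no replicate check, and the part of these reads in the mutation rates was not tested.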

How the results depend on the processing

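G300 passed under all 8 alternatives of the centred fit (log2 ratio 2.09 to 2.14, adjusted p at most 0.0214). DESeq2 called 4 nucleotides higher and 0 lower than the control (0 lower at an unadjusted p under 0.05), and 3 above and 0 below their base (1 below at an unadjusted p under 0.05). EdgeR on read depth called 3 and 0 (0 lower unadjusted), and 1 and 0 (1 below unadjusted); there edgeR estimated a prior of 2.64 degrees of freedom, where with effective depth it was infinite. TMM factors called 8 higher and 2 lower than the control, and 5 above and 2 below their base. The share of the whole RNA was not computed for TMM factors or for an unadjusted p. The cause of these changes was not tested. Common dispersion, chosen after seeing the data, changed no count.

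The median centred log2 ratio of the whole stretch, and equally of the linker, was 0.060 to 0.067 without 1 SDA replicate, 0.15 with all nucleotides as centre, 0.11 with the base median taken outside the stretch and -0.0278 mutations per 10000 reads as a difference of rates. With its boundary moved 2 nucleotides toward the 5' or 3' end, the linker had 0.069 or 0.11 and the stem-loop 4 strand 0.45 or -0.10. The strand had 0.20 to 0.27 without 1 SDA replicate and 0.20 with all nucleotides as centre. Leaving out an SDA replicate leaves no residual degree of freedom, so no calls were made there. No paired analysis was possible because the control is 1 library with no replicate number. Pairing was predicted for 18 nucleotides at a probability of at least 0.5, against 17.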
